A study of Mus musculus with 19 samples.

Results

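The tiles described here were the stretches of the mouse genome that held little of any of 3 repressive histone marks in control embryonic stem cells (ESCs). ChIP-seq, the sequencing of DNA that is immunoprecipitated with a modified histone, had been performed for H3K27me3, H3K9me2 and H3K9me3. The deposited table divides the genome into tiles of 2 kb and gives for every library the observed over expected reads of the tile as a log2 value. A tile was chosen if it lay on chromosomes 1 to 19, if its value in the Input library (DNA sequenced without immunoprecipitation) was at least -1, and if its H3K27me3, H3K9me2 and H3K9me3 values in the day 4 control libraries were each at least 1 below Input. This left 47260 tiles, or 94.5 Mb, which were 4.65% of the 1017422 tiles on these chromosomes that met the Input limit. The whole table held 1327469 tiles, of which 1236182 were on chromosomes 1 to 19. As a comparison, 46935 look-alike tiles (4.61%) were as poor in H3K9me2 and H3K9me3 but did not meet the limit for H3K27me3.

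Control cells, labelled Wildtype, were compared with *Dnmt1* conditional knockout (cKO) cells, labelled Dnmt1 KO, which had lost the gene for the methyltransferase that maintains DNA methylation. According to the methods of the study, the cells carried loxP sites on both copies of *Dnmt1* and Cre was induced with tamoxifen, and the labels give E14 as the background where the methods give C57BL/6. The study asked how repressive chromatin responds 4 and 8 days after the deletion, when DNA methylation is being lost. For every mark, both genotypes were sequenced once at day 4 and in 2 libraries at day 8, and with 1 Input library from control cells this made 19 libraries. The day 4 control libraries chose the tiles, so their values are given as a description. The day 8 libraries took no part in the choice, although every distance from Input shares the Input library with it. The series record calls the repeated libraries biological replicates, whereas the methods speak of a single measurement. Since neither names separate cultures, the p-values below measure the spread between these libraries only.

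H3K27me3 is laid down by Polycomb repressive complex 2 and in ESCs marks the CpG-rich promoters of genes that are kept off until differentiation. H3K9me3 is made by SETDB1 and the SUV39H enzymes at transposable elements, imprinted regions and heterochromatin. H3K9me2, made by G9a and GLP, covers broad domains of the inactive genome and is reduced over active genes. Genes that every cell transcribes, such as those for ribosomal proteins, histones and splicing factors, usually start in CpG islands, which are kept free of DNA methylation. DNMT1 copies DNA methylation to the new strand at replication, and without it methylation is diluted as cells divide.

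A total of 2985 of 17832 protein-coding gene starts (16.7%) lay in the chosen tiles. To show what such promoters look like, 3 are printed from the NCBIM37 genome, from 250 bases before to 50 bases after the annotated gene start, 5′ to 3′ on the strand of the gene. They are the promoters with the most CpG sites in their tile for 3 of the 4 gene groups with the highest share of starts in the tiles, namely replication-dependent histones, splicing factors and ribosomal proteins. Capitals mark every match, on either strand, to one of 9 motifs: the GC box GGGCGG, the CCAAT box CCAAT, the TATA box TATAAA, the E-box CACGTG, the cyclic AMP response element TGACGTCA, the ETS site CCGGAAG, the NRF1 site GCGCATGCG, the YY1 site AAGATGGCG and the Ronin site ACTACAATT.
Hist1h2ad: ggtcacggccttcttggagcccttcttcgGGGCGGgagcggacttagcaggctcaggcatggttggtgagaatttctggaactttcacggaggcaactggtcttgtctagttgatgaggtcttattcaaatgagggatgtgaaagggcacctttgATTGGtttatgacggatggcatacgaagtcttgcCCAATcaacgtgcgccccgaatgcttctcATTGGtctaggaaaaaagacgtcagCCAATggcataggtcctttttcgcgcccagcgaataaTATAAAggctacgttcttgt
Hnrnpu: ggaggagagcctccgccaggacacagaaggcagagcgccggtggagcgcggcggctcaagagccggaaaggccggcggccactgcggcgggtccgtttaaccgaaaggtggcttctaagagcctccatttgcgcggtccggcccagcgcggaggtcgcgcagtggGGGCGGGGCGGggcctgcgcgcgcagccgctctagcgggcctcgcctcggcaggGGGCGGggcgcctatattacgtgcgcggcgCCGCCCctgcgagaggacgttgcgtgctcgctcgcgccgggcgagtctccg
Rpl7: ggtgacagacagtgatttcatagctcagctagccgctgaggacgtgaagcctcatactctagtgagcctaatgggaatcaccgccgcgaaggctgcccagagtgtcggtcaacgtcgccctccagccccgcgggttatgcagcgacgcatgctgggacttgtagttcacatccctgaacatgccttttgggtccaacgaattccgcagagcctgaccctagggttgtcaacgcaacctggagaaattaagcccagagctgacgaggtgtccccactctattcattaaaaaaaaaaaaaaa
*Hist1h2ad*, a gene for histone H2A, lies at chr13:23666000-23666299 on the + strand, and its 300 bases held 15 CpG sites, 4 CCAAT boxes, 1 TATA box and 1 GC box. The GC box lies inside the neighbouring gene *Hist1h2bf*, annotated on the other strand. The TATA box lies downstream of the annotated start of *Hist1h2ad*. *Hnrnpu*, which codes for an RNA-binding protein of the nuclear matrix, lies at chr1:180267879-180268178 on the - strand with 45 CpG sites and 4 GC boxes. *Rpl7*, which codes for a protein of the large ribosomal subunit, lies at chr1:16094694-16094993 on the - strand with 16 CpG sites and no match to the 9 motifs.

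Over all 2985 promoters in the tiles, the ETS site was found in 25.7%, against 11.3% of 3998 look-alike promoters and 11.4% of all 17832. The YY1 site was found in 4.89%, 1.58% and 1.90% in the same order, the NRF1 site in 4.99%, 2.33% and 2.27%, the cyclic AMP response element in 4.56%, 2.73% and 2.40%, and the Ronin site in 1.04%, 0.525% and 0.533%. These 5 motifs were thus more frequent than in either comparison, and they are known from promoters of widely expressed genes. The GC box was found in 62.0% of the promoters and in 62.4% of the look-alike promoters, against 44.4% of all. The CCAAT box was found in 42.5%, 34.7% and 37.5% and the E-box in 10.2%, 9.76% and 7.99%. The CCAAT box was thus also more frequent than in either comparison, whereas the E-box share was near that of the look-alike promoters. The TATA box, typical of tissue-specific promoters, was found in 7.44%, 8.25% and 13.6%. Promoters in the tiles held a median of 21 CpG sites in 300 bases (quartiles 14 and 28), the look-alike promoters 19 and all promoters 12. A match to such letters is a description and does not show that a factor is bound.

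Library depth and quality set how firmly these tiles can be read. ChIP libraries held 5669098 to 26181489 reads in tiles and Input 19010249, and a chosen tile held a median of 20 Input reads but only 2 to 13 reads of a ChIP library, so single tiles carry a large counting error. Of the day 8 libraries, 2 stood apart. The H3K9me3 cKO library of replicate 1 had 5669098 reads, and 17.1% of the chosen tiles had none in it, against 0.269% in its control. In the H3K9me2 cKO library of replicate 2 only 39.4% of the chosen tiles and 7.57% of all 1017422 tiles lay at least 1 below Input, against 75.3% to 79.8% and 15.2% to 17.5% in the other H3K9me2 libraries that the rule did not use. Its correlation with Input did not set it apart in a single direction, with the highest Pearson value over all tiles (0.131, others 0.065 to 0.116), a Spearman value below that of a control (0.097 and 0.119) and the lowest Pearson value over the chosen tiles (0.325, others 0.336 to 0.406). Levels of these marks are therefore given for each replicate, and the main counts also without these libraries.

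The tiles were gene-rich. Of the 47260 tiles, 5.67% held the start of a gene, 45.1% an exon and 37.1% only intron, and 17.8% (8412 tiles) were intergenic. Over all 1017422 tiles these shares were 1.73%, 15.1%, 28.6% and 56.3%. Look-alike tiles held gene starts more often (8.32%) but exons less often (28.9%), and 43.7% of them were intergenic. The tiles were not CpG-rich as a rule. Their median was 15 CpG sites per 2 kb and 40.1% G+C, close to the 14 sites and 41.4% of all tiles, whereas look-alike tiles had 20 sites and 43.5%. A minority of 1560 tiles (3.30%) held 80 or more CpG sites, here called CpG-rich, against 0.709% of all tiles and 5.67% of look-alike tiles. Read the other way, the tiles took up 25.4% of all tiles with a CpG-rich gene start (1280 of 5043), 15.3% of all gene starts, 13.7% of exons away from a start, 6.02% of introns and 1.47% of intergenic tiles. By chromosome, their share ran from 3.45% on chromosome 8 to 6.76% on the gene-dense chromosome 11. The median distance to the nearest gene start was 18954 bp, against 14501 bp for look-alike tiles and 65039 bp for all tiles.

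Around protein-coding genes of at least 20 kb, the share of tiles that were chosen peaked at the gene start and stayed high along the gene. It was 7.10% at 4 kb upstream, 18.6% in the tile with the start, 14.8% at 6 kb inside and 13% at 20 kb inside the gene. At the gene end it was 11.2%, and at 4 kb beyond it 7.31%. The step down at both ends therefore lay at the boundary of the transcribed unit.

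**Figure D1:**
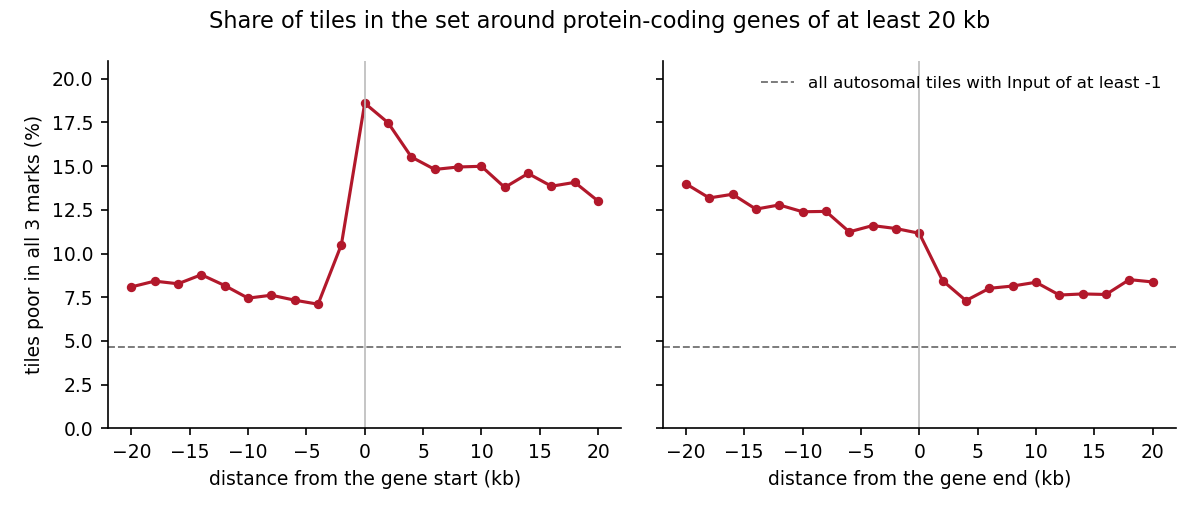
Share of tiles poor in all 3 marks around the starts (left) and ends (right) of 9295 protein-coding genes of at least 20 kb, in percent of tiles with Input of at least -1, against the distance in kb along the direction of transcription. The share is 7.10% at 4 kb upstream, 18.6% at the start and 13% at 20 kb inside, and drops from 11.2% at the end to 7.31% at 4 kb beyond.

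In all, 8848 of 22512 genes had at least 1 tile, among them 8454 of 21281 protein-coding genes (39.7%) and 394 of 1231 lincRNA genes (32%). Of 14138 genes with 5 or more tiles, 1221 (8.64%) had at least 50% of their tiles in the set, 26 had all of them and 6634 had none. The 1221 genes had a median length of 22.7 kb, against 30.5 kb for all 14138, and they held 25.1% of the chosen tiles.

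The gene groups with the largest shares of their starts in the tiles were those that every dividing cell uses. Replication-dependent histones, which package DNA made in S phase, had 38 of 55 starts in the tiles (69.1%), counted as genes, since neighbouring histone genes share a tile. Splicing factors had 29 of 46 (63.0%), ribosomal proteins 41 of 72 (56.9%), translation factors 30 of 56 (53.6%), and subunits of the respiratory chain and ATP synthase 41 of 82 (50.0%). Mitochondrial ribosomal proteins had 33 of 70 (47.1%), aminoacyl-tRNA synthetases 8 of 18 (44.4%), proteasome subunits 15 of 34 (44.1%), DNA replication factors 13 of 32 (40.6%), and general transcription factors with RNA polymerase II 23 of 62 (37.1%). Among the enzymes and cofactors that write repressive marks and DNA methylation, 9 of 19 starts (47.4%) lay in tiles poor in those marks, among them those of *Rbbp4*, *Jarid2* and *Eed* of Polycomb repressive complex 2. Each of these shares was above the 16.7% of all protein-coding starts.

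Starts of developmental, imprinted, germline and olfactory receptor genes were nearly absent. Developmental regulators, such as the Hox, Pax and Gata genes, had 0 of 106 starts in the tiles and only 3 of 985 gene tiles (0.305%). Since H3K27me3 marks promoters of genes kept off in ESCs, their absence follows in part from the rule. Imprinted genes, which carry repressive marks on 1 parental copy, had 0 of 29 starts, and germline genes silenced by DNA methylation 0 of 26. Olfactory receptors, which are silent outside sensory neurons, had 22 of 1008 (2.18%). Zinc finger protein genes lay in between with 76 of 307 (24.8%). Pluripotency factors had 6 of 20 starts (30.0%), among them those of *Lifr*, the receptor of LIF, *Stat3*, its signal transducer, and *Klf5*.

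**Figure D2:**
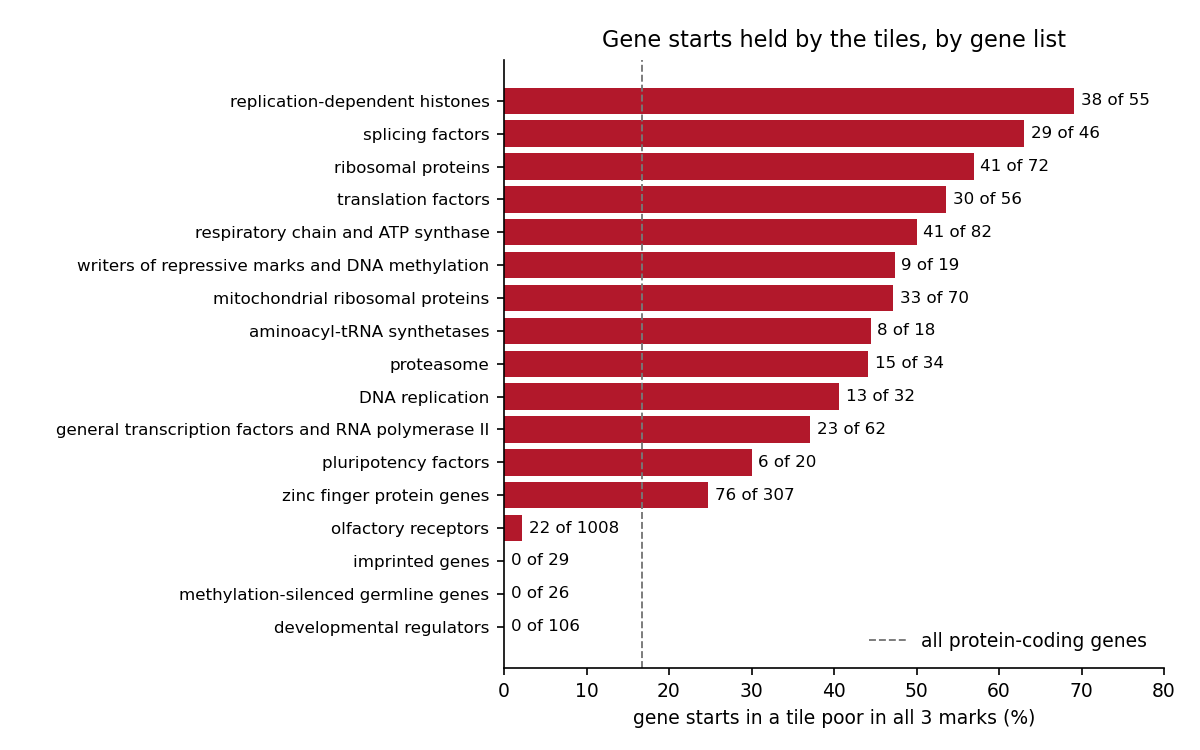
Percent of gene starts that lie in tiles poor in all 3 marks, for each of 17 gene groups, with the number of starts beside each bar and a line for all protein-coding genes (16.7%). Histones (69.1%) and splicing factors (63.0%) are highest, and developmental regulators, imprinted genes and germline genes are at 0.

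The cell type was checked with defining genes. None of 10 ESC genes had its start in the tiles, but 7 of them had at least 1 tile further in, including *Pou5f1* (2 of 3 tiles), *Zfp42* (4 of 7), *Sall4* (5 of 10) and *Nanog* (2 of 5). The median H3K27me3 value at their starts was -0.64 and -0.88 in the day 8 control libraries of replicates 1 and 2. It was 2.51 and 2.08 at 6 genes of fibroblasts, which can serve as feeder cells, and 4.38 and 3.83 at 6 genes of differentiated lineages. The medians thus ran from low at ESC genes to high at lineage genes, with exceptions in both ESC and fibroblast genes. The ESC genes *Klf4* (1.01 and 2.38) and *Esrrb* (0.87 and 1.17) had high H3K27me3 values, and the fibroblast collagen gene *Col3a1* (-0.44 and -0.27) low ones. *Pou5f1* and *Nanog* had Input values of -0.63 at their starts, so the limit on Input did not keep them out. The starts of the ESC genes *Sox2* (-1.21) and *Dppa5a* (-1.89) lay below that limit and could not be chosen.

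Single promoters show how few reads a poor tile held. At the tile of *Hist1h2ad*, which also holds the start of its neighbour *Hist1h2bf*, Input had 12 reads, and the day 8 control libraries of replicates 1 and 2 had 4 and 3 H3K27me3 reads, 1 and 0 H3K9me2 reads and 3 and 2 H3K9me3 reads. In the same order, the cKO libraries had 0 and 1, 1 and 12, and 0 and 1 reads. Only the H3K9me2 cKO library of replicate 2 thus reached the number of Input reads. Scaled to depth, its log2 value was -0.89, below the -0.63 of Input. At *Hnrnpu*, with 17 Input reads, the controls had 10 and 5 H3K27me3 reads and the cKO 3 and 4, and the H3K9me2 reads were 2 and 1 in the controls and 0 and 5 in the cKO. At *Rpl7*, with 14 Input reads, H3K27me3 reads were 9 and 5 in the controls and 2 and 2 in the cKO, and H3K9me2 reads 1 and 0 in the controls and 1 and 6 in the cKO.

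Other promoters held as few reads. *Kars*, the gene of lysyl-tRNA synthetase, had 18 Input reads, and H3K9me2 reads of 3 and 0 in the day 8 controls and 4 and 21 in the cKO. *Klf5*, a factor of the pluripotency network, had 28 Input reads, and H3K9me2 reads of 2 and 1 in the controls and 1 and 15 in the cKO. *Orc6*, a subunit of the origin recognition complex, had 10 and 10 H3K27me3 reads in the controls and 3 and 5 in the cKO. Among the named starts, the olfactory receptor *Olfr427* was unlike these: its tile had 13 CpG sites against 68 to 206 in the tiles of the other groups, and its H3K9me2 reads were 21 and 17 in the controls and 14 and 22 in the cKO, beside 22 Input reads. At day 8 this tile was not poor in H3K9me2 in either group.

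Most runs were single tiles. The 47260 tiles formed 31291 runs of adjoining tiles, of which 22975 were single tiles, 931 had at least 5 tiles and 86 at least 10, and 51.4% of tiles were in runs of 2 or more. The longest run covered 33 tiles at chr2:37250001-37316000 (NCBIM37), across *Rc3h2*, *Zbtb6*, *Zbtb26* and the start of *Rabgap1*. The next were 21 tiles at chr3:103092001-103134000 inside *Trim33*, which codes for a ubiquitin ligase of the TGF-β pathway, and 19 tiles at chr4:108168001-108206000 inside *Zcchc11*, which codes for an enzyme that adds uridine to RNA. The longest run had 693 Input reads. For H3K27me3 it had 172 and 206 reads in the day 8 controls and 110 and 153 in the cKO, which gave a difference of -0.63 ± 0.04 (mean ± SD of 2 replicates, log2 of reads scaled to depth). For H3K9me2 it had 140 and 98 reads in the controls and 84 and 371 in the cKO, so replicate 1 was lower by 0.51 and replicate 2 higher by 1.43. For H3K9me3 the controls had 194 and 196 reads and the cKO 49 and 181, differences of -0.26 and -0.12 after scaling. The runs in *Trim33* and *Zcchc11* had H3K27me3 differences of -0.74 ± 0.18 and -0.56 ± 0.28, and H3K9me2 differences of opposite sign in the 2 replicates (-0.67 and 1.29, and -0.47 and 1.05). The cKO libraries of H3K27me3 were below both controls in levels of all 3 runs.

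**Figure D3:**
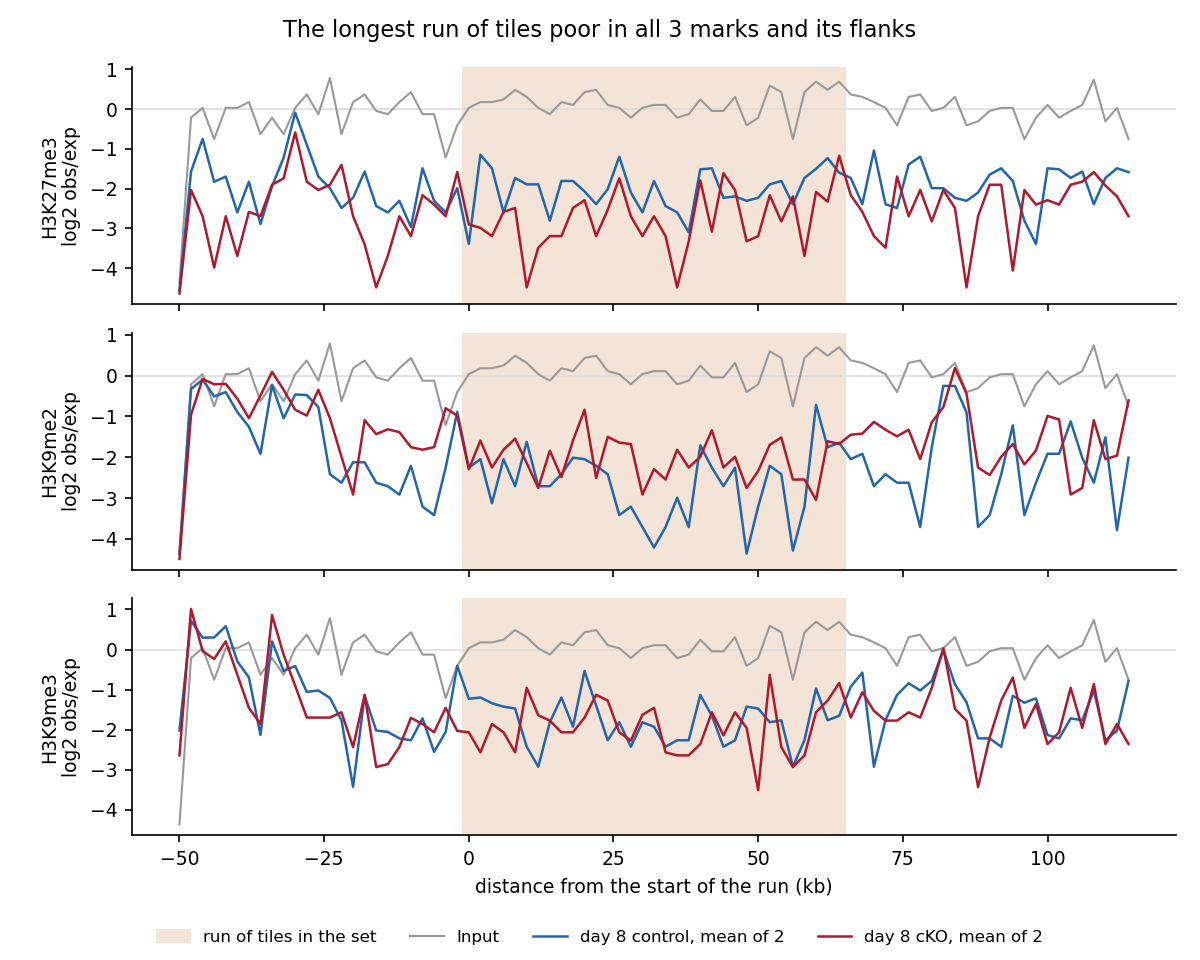
Day 8 values along the longest run of tiles poor in all 3 marks (33 tiles, shaded) and its flanks, as log2 of observed over expected reads against the distance in kb from the start of the run, with the mean of the 2 control libraries, the mean of the 2 cKO libraries and Input in each panel. Within the run both means lie below Input for every mark, which is set in part by the rule. The H3K9me2 cKO line averages a library at a level of -2.48 and one at -0.61.

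Several genes were covered almost from end to end. *Ythdc1*, a reader of RNA methylation, had 17 of 17 tiles in the set, *Psmc6*, a proteasome ATPase, 11 of 11, *Hnrnpd* 11 of 11, *Zbtb6* 10 of 10, *Cnot7*, a deadenylase subunit, 12 of 13, *Tra2b* 11 of 12, *Timm23*, the channel of mitochondrial protein import, 11 of 12, *Uba6* 28 of 31, *Ipo7* and *Copb1* 18 of 20 each and *Pex13* 9 of 10. The rule for naming genes did not cover gene bodies, so these and the next genes were named after their values were seen. Of the Polycomb genes, *Suz12* had 18 of 21 tiles in the set, *Ezh2* 13 of 30, *Eed* 7 of 12 and *Jarid2* 43 of 94. *Trim28*, the cofactor of H3K9me3 silencing, had 4 of 5, *Setdb1* 7 of 16 and *Dnmt1* itself 3 of 20.

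The limit of the rule cut through a continuum. The 3 tiles just inside it, in *Tmem131*, *Mrpl30* and *Sf3b1*, each lay 1.000259 below Input in H3K9me2 (Input -0.51, H3K9me2 -1.51). The 3 just outside, nearest to *Pcdh9*, *A830005F24Rik* and *2610316D01Rik*, lay 0.995718, 0.995628 and 0.993728 below Input in the mark nearest to it. Within 0.1 of the limit lay 9351 chosen and 9477 other tiles, and the median smallest distance from Input of the chosen tiles was 1.30.

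When the rule was applied to the day 8 libraries, 57.4% and 57.6% of the tiles met it again in the control libraries of replicates 1 and 2. Of all tiles, 4.81% and 4.79% met it. In both control replicates it was met by 42.7%, against 2.82% of all tiles. In the cKO libraries 58.3% met it in replicate 1 (5.74% of all tiles) and 31.9% in replicate 2 (2.59%). With H3K9me2 left out of the rule, the shares were 67.2% and 67.3% in the controls and 68.9% and 70.2% in the cKO. Over all tiles they were 8.67% and 7.85% in the controls and 12.3% and 8.80% in the cKO. The 12.3% belongs to replicate 1, which has the shallow H3K9me3 library. The lower share in replicate 2 of the cKO thus came with its H3K9me2 library, which stood apart. In the day 4 cKO libraries, whose controls chose the tiles, 55.7% met all 3 limits, against 4.54% of all tiles.

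Across the tiles as a whole, H3K27me3 was lower in the cKO at day 8. The level of no mark reached that of Input, which is set in part by the rule, since it used the same Input library. The level of a library over the tiles is the log2 of its mean reads per tile over its own genome-wide mean. It was 0.53 for Input. For H3K27me3 it was -1.12 and -1.08 in the controls and -1.29 and -1.35 in the cKO, a difference of -0.22 ± 0.08 (SD, n = 2), and the groups did not overlap. The exact permutation test gave p = 0.333 (two-sided), the smallest value that 2 libraries against 2 can give. The remaining tiles with Input of at least -1 differed by 0.01. The median tile in the set was lower by 0.22 in replicate 1 and by 0.33 in replicate 2, whereas the medians of the differences over all tiles were 0.04 and 0.05. The median tile value of the cKO library itself was higher than that of its control by 0.18 in replicate 2, and with each library centred on its median tile the difference over the chosen tiles was -0.33.

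For H3K9me2 the levels were -1.06 and -1.05 in the controls and -1.09 and -0.29 in the cKO, so the cKO libraries lay on either side and the difference of 0.36 ± 0.56 (n = 2) came from replicate 2 alone (-0.04 and 0.76; exact permutation p = 1.000). The replicate 2 library is the one that stood apart, over all tiles too, and what part this had in the higher level was not tested. For H3K9me3 the levels were -0.93 and -0.89 in the controls and -1.12 and -0.88 in the cKO, a difference of -0.09 ± 0.14 (n = 2, exact permutation p = 1.000) that came from the shallow replicate 1 library (-0.19, against 0.02 in replicate 2). At day 4, with 1 library per group, cKO minus control was 0.02 in H3K27me3 and 0.48 in H3K9me2, and since low control values chose the tiles, a higher cKO value there is fixed in part by the rule.

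**Figure D4:**
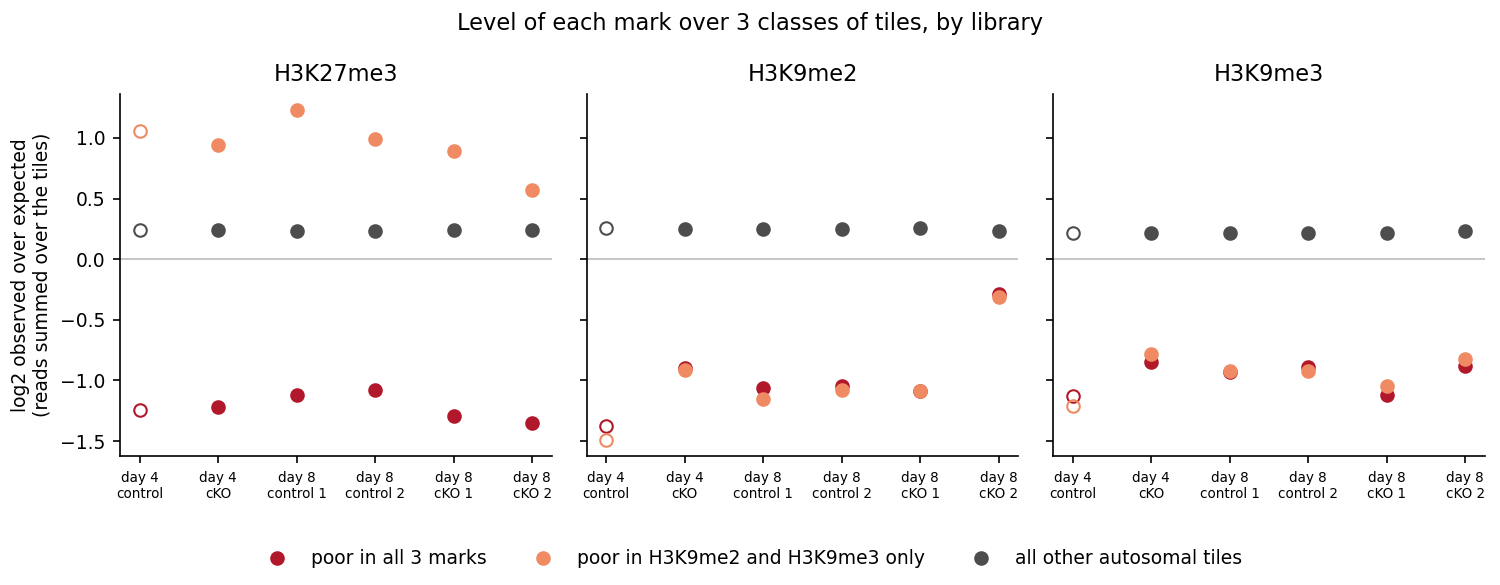
Level of each library (log2 of mean reads per tile over the library's genome-wide mean) over the tiles poor in all 3 marks, the look-alike tiles (poor in H3K9me2 and H3K9me3 only) and all other autosomal tiles with Input of at least -1 (which include the look-alike tiles), in a panel for each mark. Each point is 1 library, open circles are the day 4 control libraries that the rule used, and the line marks a level of 0. In the poor tiles the day 8 H3K27me3 levels are -1.12 and -1.08 in control and -1.29 and -1.35 in cKO, and 1 H3K9me2 cKO library (-0.29) stands above the rest.

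Look-alike tiles, which did not meet the limit for H3K27me3, differed in the same direction and by more. Their H3K27me3 levels were 1.23 and 0.99 in the controls and 0.89 and 0.57 in the cKO. The difference was -0.38 ± 0.06 (n = 2, exact permutation p = 0.333). These summed levels come from the richer part of the look-alike tiles. Their median tile was at -0.10 and -0.12 in the controls, beside Input at -0.04. Their H3K9me2 difference was 0.42 (exact permutation p = 0.667) and their H3K9me3 difference -0.01 (p = 1.000 by the same permutation test). The difference between both sets of tiles was not tested.

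Within the chosen tiles the H3K27me3 difference was largest where CpG sites were dense. In the 1560 CpG-rich tiles it was -0.55 in replicate 1 and -0.81 in replicate 2, with levels of -1.21 and -1.48 in the controls and -1.76 and -2.30 in the cKO. It was -0.11 and -0.26 in the 14868 tiles with 20 to 79 CpG sites and -0.18 and -0.26 in the 30832 tiles with fewer. By place, it was -0.48 and -0.67 in tiles with a gene start, -0.18 and -0.37 in exons, -0.19 and -0.33 in introns, and -0.05 and -0.02 in intergenic tiles. Lower H3K27me3 at gene starts was not particular to the set. Tiles with a gene start outside it differed by -0.41 and -0.45, and the look-alike tiles among them by -0.80 and -0.98. CpG-rich tiles outside the set, which held H3K27me3 levels of 3.06 and 2.53 in the controls, differed by -0.93 and -1.19. H3K9me2 in CpG-rich tiles of the set was higher by 0.12 in replicate 1 and 2.04 in replicate 2, and in intergenic tiles the values were -0.23 and 0.34.

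**Figure D5:**
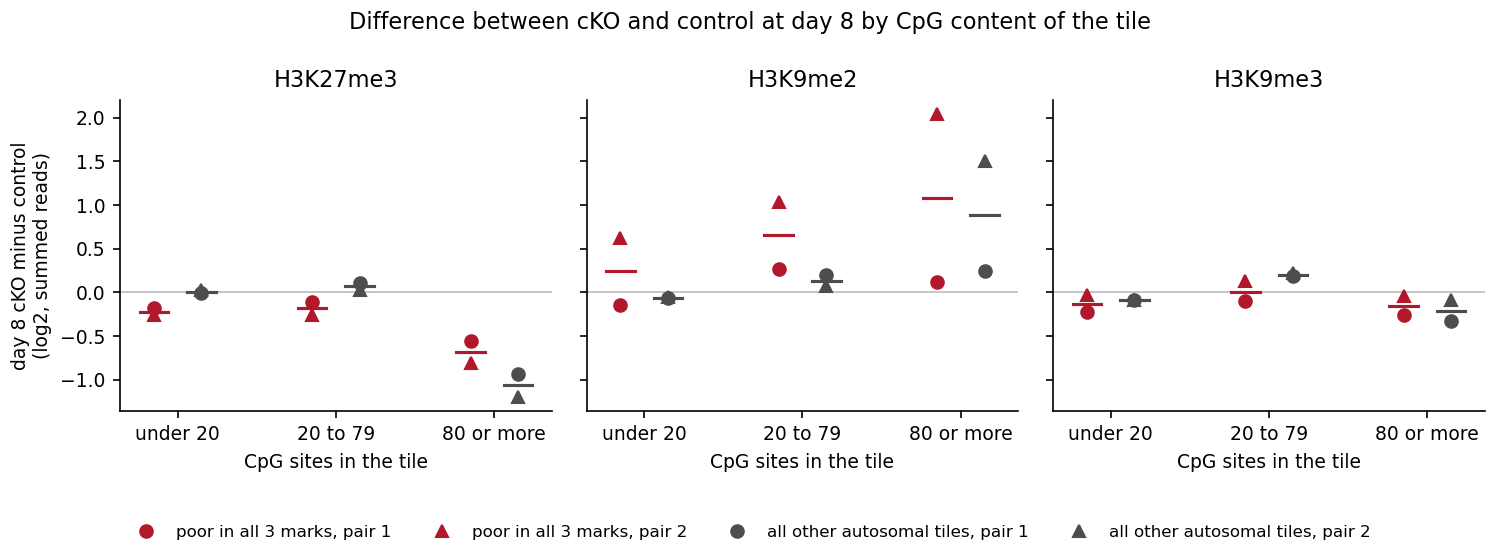
Difference between cKO and control at day 8 (log2 scale) for each mark, by the number of CpG sites in the tile, in the tiles poor in all 3 marks and in the other tiles. Circles are replicate 1, triangles replicate 2 and bars their mean. H3K27me3 is lower in CpG-rich poor tiles in both replicates (-0.55 and -0.81), while H3K9me2 there is 0.12 and 2.04.

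Few single tiles were higher in the cKO for H3K27me3 or H3K9me3. At least 2-fold in both comparisons of libraries with the same replicate number, H3K27me3 was higher in 490 of the 47260 tiles (1.04%) and lower in 2870 (6.07%), against 0.925% and 1.54% of all 1017422 tiles. H3K9me3 was higher in 709 (1.5%) and lower in 1629 (3.45%), against 1.03% and 2.12%. H3K9me2 was higher in 4121 (8.72%) and lower in 91 (0.193%), against 2.08% and 0.272%. The share with higher H3K27me3 was thus near that of all tiles. The shares with lower H3K27me3, with higher H3K9me2 and with H3K9me3 changed in either direction were above those of all tiles. This was not particular to the set, since 5.9% of look-alike tiles were lower in H3K27me3 and 9.98% higher in H3K9me2. In replicate 1 alone, without the H3K9me2 library that stood apart, 6937 tiles (14.7%) were at least 2-fold higher in H3K9me2, against 6.86% of all tiles. In the same replicate 15.5% were at least 2-fold lower, against 5.76% of the remaining tiles. In replicate 2 alone, without the shallow H3K9me3 library, 5097 (10.8%) were higher in H3K9me3, against 6.73%. There 13.1% were at least 2-fold lower in H3K9me3, against 7.59% of the remaining tiles. With 2 to 13 reads in the median tile, a 2-fold difference lies within counting error for many of these. In the 1560 CpG-rich tiles H3K27me3 was lower in 212 (13.6%) and higher in 4 (0.256%), and H3K9me2 was higher in 324 (20.8%). Among all CpG-rich tiles these shares were 29.5% lower and 0.333% higher for H3K27me3 and 18.8% higher for H3K9me2.

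No tile passed the test across the genome. In limma with Benjamini-Hochberg adjustment over all tiles with reads, the calls were 0 of 1255417 tiles for H3K27me3 (0%), 0 of 1254661 tiles for H3K9me2 (0%) and 0 of 1256638 tiles for H3K9me3 (0%), and the smallest adjusted p in the set was 0.544, 0.846 and 0.773. At an unadjusted limma p under 0.05, 1192 of the tiles (2.52%) were higher and 6228 (13.2%) lower in H3K27me3, against 3.78% and 3.89% of all tiles. For H3K9me2, 6103 (12.9%) were higher and 299 (0.633%) lower, against 3.99% and 1.68%. These H3K9me2 counts turned without the cKO library of replicate 2, to 2759 higher (5.84%) and 4646 lower (9.84%), against 2.29% and 3.76% of all tiles. For H3K9me3, 1453 (3.07%) were higher and 2242 (4.74%) lower, against 2.5% and 3.74%. Without the shallow cKO library of replicate 1 the H3K9me3 counts were 2755 (5.83%) and 2916 (6.17%), against 2.96% and 3.94%. A count of 0 after adjustment does not show that the tiles did not differ.

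Settings of limma that let the spread depend on the level made a few calls. With a trend, 12 tiles passed for H3K27me3, 11 lower and 1 higher, where 0.182% of all tiles were lower and 0.0624% higher. With voom on recovered reads 22 passed, 19 lower and 3 higher, where 0.325% and 0.105% of all tiles did, and 5 tiles were called in both. For H3K9me3, 1 tile of the set passed by voom, where 0.0386% of all tiles did. Tiles in the set were called less often than tiles at large under both settings. They also held fewer reads. The median was 5 to 7 in the day 8 H3K27me3 libraries, against 13 to 20 over all tiles with Input of at least -1. What part this had in the fewer calls was not tested. A tile in an exon of *Hnrnpm*, a splicing regulator, fell in both, with 9 and 11 reads in the controls and 0 and 1 in the cKO (limma with a trend, log2 difference -3.49, adjusted p = 0.0236). A tile in an intron of *Mthfd1l*, a mitochondrial folate enzyme, fell likewise from 9 and 11 reads to 1 and 0 (adjusted p = 0.0243). The gene start of *Wdr19*, a transport protein of cilia, fell from 19 and 13 reads to 2 and 2 (adjusted p = 0.0404). In the other direction, an intron of *Dock2*, a signalling protein of blood cells, rose from 28 and 35 reads to 80 and 82 in both settings (log2 difference 1.28, adjusted p = 0.0361 with a trend), and by voom alone an exon of *Nav3* rose from 6 and 7 to 20 and 34 reads (adjusted p = 0.0319) and one of *Zfp790* from 9 and 8 to 40 and 24 (adjusted p = 0.0295). These were the only H3K27me3 gains in the tiles that passed any setting tried with all 4 libraries.

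By size of difference, the leading tiles were small in reads. For higher H3K27me3 the leading tile lay in an intron of *Pard6b*, a cell polarity gene, with 2 and 2 reads in the controls and 11 and 17 in the cKO, a depth-scaled ratio of 6.5 (exact 95% limits 2.27 and 25.5, which cover counting error only). For higher H3K9me2 a tile in an exon of *Sall4* and one near *Pank2* each had 0 and 1 reads in the controls and 8 and 17 in the cKO (ratio 23.0, limits 3.77 and 945), and one in *Srp68* had 1 and 0 against 7 and 19. For H3K9me3 a tile in an intron of *Ap2b1* had 2 and 1 reads in the controls and 5 and 10 in the cKO (ratio 7.58, limits 2.15 and 40.9). The gene start of *Tmem167b* had 10 and 13 H3K9me3 reads in the controls and 0 and 1 in the cKO (ratio 0.0660, limits 0.00160 and 0.406), and an intron tile of *Fut8* 13 and 13 against 0 and 0. None of these passed limma after adjustment.

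Entry of a mark was also asked directly, as a tile at or above Input in both cKO libraries and at least 1 below it in both controls of day 8. For H3K27me3, 0 of the 47260 tiles met this, against 0.0381% of all tiles. For H3K9me2, 14 tiles did (0.0296%, against 0.0653%), and for H3K9me3, 5 (0.0106%, against 0.0449%). The converse was at or above Input in both controls and at least 1 below in both cKO libraries. It was met by 1, 2 and 3 tiles (0.00212%, 0.00423% and 0.00635%), against 0.0312%, 0.0109% and 0.113% of all tiles. Since the rule had placed the chosen tiles at least 1 below the same Input library, their shares are set in part by the choice, and nothing is read from their distance to the shares of all tiles. A share at or above Input of 0.641% and 0.495% in the H3K27me3 cKO libraries stood beside 0.457% and 0.351% in the controls. The H3K9me2 shares were 1.57% and 4.57% against 1.31% and 1.01%, and those of H3K9me3 2.23% and 0.798% against 0.565% and 0.525%, with the higher value in each case in the library that stood apart.

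Of the 14 H3K9me2 tiles, named after their values were seen, 7 lay in exons, 4 in introns, 2 at gene starts and 1 between genes. The start of *Gle1*, an mRNA export factor, had 10 Input reads and 5 and 1 H3K9me2 reads in the controls against 10 and 16 in the cKO. The shared start of *Ltn1* and *Rwdd2b* had 14 Input reads, 6 and 5 in the controls and 14 and 19 in the cKO. An exon of *Dnmt3b*, a de novo DNA methyltransferase, had 14 Input reads, 3 and 3 in the controls and 17 and 17 in the cKO. For H3K9me3, exons of *Dbt* and *Sept11* and an intron of *Cblb* were among the 5 tiles, and the replicate 1 reads of all 5 were only 5 to 8 in the cKO.

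The share of tiles at least 1 below Input in both libraries of a group is likewise tied to Input. For H3K27me3 it was 75.2% (35535 tiles) in the controls and 82.1% (38787) in the cKO, beside 159054 and 170377 of all 1017422 tiles (16.7% in the cKO). For H3K9me3 it was 64.6% and 62.6%, where that of all tiles was 10.5% and 12.3% and so differed in the other direction. For H3K9me2 it was 70.0% in the controls and 35.8% in the cKO, beside 11.8% and 4.82% of all tiles, and among the chosen tiles cKO replicate 1 alone had 79.1% and replicate 2 alone 39.4%.

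Sums over gene bodies carry more reads than tiles. Of the 1221 genes with at least 50% of their tiles in the set, 961 (78.7%) were lower for H3K27me3 in both replicates, against 53.2% of all 14138 genes, and the median differences were -0.28 and -0.52, against -0.07 and -0.14 in the other genes. For H3K9me2, 629 (51.5%) were higher in both, against 59.3% of all, with medians of 0.01 and 1.09. For H3K9me3, 448 (36.7%) were lower in both, against 24.6%, with medians of -0.24 and 0.02. With all 4 libraries and without a trend, voom or a replicate block, no gene body passed limma after adjustment in any mark (0%, 0% and 0% of 14138). At an unadjusted limma p under 0.05, 550 of the 1221 (45.0%) were lower and 7 higher in H3K27me3, against 22.1% and 3.96% of all, with the smallest adjusted p at 0.0956. For H3K9me2, 39 were higher and 0 lower, against 5.47% and 0.0778%, and for H3K9me3, 18 were higher and 83 lower, against 12% and 4.9%. Without the cKO library that stood apart, 27 were higher and 67 lower for H3K9me2 (2.91% and 1.41% of all genes), and 64 higher and 71 lower for H3K9me3 (13.6% and 4.92%). With a replicate block and all 4 libraries, 360 of the 1221 gene bodies were called lower in H3K27me3 (29.5%, against 16% of all genes). Another 2 were called higher (0.164%, against 1.9%). With a trend, H3K27me3 fell over *Ptpmt1*, a mitochondrial phosphatase, from 55 and 55 reads to 26 and 35 (log2 difference -0.96, adjusted p = 0.0490 in limma with a trend), 1 of 1221 genes where 0.573% of all passed. Without the cKO library of replicate 1, H3K27me3 fell in 314 of these gene bodies (25.7%, against 13.1% of all genes). H3K9me2 rose in 809 (66.3%, against 16.8%), a count that rests on the replicate 2 library alone, the one that stood apart. Without any other single library, no gene body of the set passed for these marks. For H3K9me3, 169 gene bodies (13.8%, against 7.8%) passed without the cKO library of replicate 2, which leaves the shallow library alone. Of the single tiles, 583 (1.23%, against 0.522% of all tiles) passed for H3K9me3 without the cKO library of replicate 1 and 1997 (4.23%, against 6.08%) without that of replicate 2.

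Among the named genes, *Setdb1* had 82 and 103 H3K27me3 reads in the controls and 52 and 69 in the cKO (-0.71 ± 0.14, n = 2 replicates; limma adjusted p = 0.0956), and *Ezh2* 203 and 203 against 130 and 148 (-0.64 ± 0.06, adjusted p = 0.101). *Hnrnpd* had 51 and 55 against 33 and 32 (-0.80 ± 0.30, adjusted p = 0.0996). *Ythdc1* had 80 and 75 against 61 and 65 (-0.39 ± 0.07), and *Suz12* 73 and 103 against 52 and 86 (-0.47 ± 0.03). *Psmc6* went the other way with 44 and 43 against 50 and 57 (0.20 ± 0.04). For H3K9me2, *Suz12* had 74 and 42 reads in the controls and 57 and 241 in the cKO, and *Ythdc1* 71 and 60 against 64 and 196. After scaling to depth, the replicates differed in sign in *Suz12* (-0.15 and 2.03) and were 0.08 and 1.22 in *Ythdc1*. Over *Dnmt1*, the deleted gene, H3K27me3 reads were 89 and 113 in the controls and 77 and 114 in the cKO, a sum over the whole gene that does not check the deletion.

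Summed over the start tiles of each gene group, H3K27me3 was lower in both replicates in all 14 groups with starts in the set. Ribosomal proteins (41 tiles) had levels of -1.37 and -1.53 in the controls and -1.87 and -2.58 in the cKO, a difference of -0.78 ± 0.38 (n = 2). Histones (28 tiles) had a difference of -0.59 ± 0.02, splicing factors (29 tiles) -0.74 ± 0.05, and writers of repressive marks (9 tiles) -0.76 ± 0.05. It was -0.58 ± 0.14 over all 2589 tiles of the set with protein-coding starts, beside -0.41 and -0.45 in tiles with a gene start outside the set. Of the groups, olfactory receptors (22 tiles) differed least, by -0.19 ± 0.10. For H3K9me2, replicate 2 was higher by 1.56 to 2.46 in 13 groups and lower by 0.01 in olfactory receptors, whereas replicate 1 ranged from -0.62 in the writers to 0.55 in the proteasome. For H3K9me3 the 2 replicates of ribosomal proteins were at -0.23 and 0.01, and those of DNA replication factors at -0.37 and -0.57.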

How the data were processed

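ChIP-seq libraries for H3K27me3, H3K9me2 and H3K9me3 and 1 Input library had been made from mouse ESCs. The authors trimmed reads with Trim Galore, aligned them with Bowtie2 (version 2.2.9 in the submitters' processing notes) to NCBIM37 with Ensembl 67, discarded alignments with a mapping quality under 20, and deposited the log2 of observed over expected reads per tile, each library scaled to its own total. Input was not subtracted, and removal of duplicates is not stated. The tile length is 2 kb in the table but 1 kb in the methods, which also speak of a single measurement where the labels of day 8 number 2 libraries per group.

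All values stepped in whole reads (100% within 0.1 of a read), so reads were recovered for all 19 libraries, and no column was left unused. Tiles with no read carry the value of 0.9 read, so its log2 value depends on depth. Levels and differences over many tiles were taken from summed reads. Chromosome lengths equalled those of the NCBIM37 reference, whose GENCODE annotation (Ensembl 65) gave 22512 protein-coding and lincRNA genes on chromosomes 1 to 19. CpG sites, promoters (250 bases upstream to 50 downstream of the gene start) and motifs were read from its sequence.

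Day 8 cKO and control were compared with limma 3.58.1 in R 4.3.3 (2 libraries against 2, no trend, two-sided, Benjamini-Hochberg adjusted p threshold 0.05, tiles without reads in all 4 libraries left out) and, over library levels, with the exact permutation test, which has 6 arrangements and cannot go below 0.333. The fits were tested on simulated reads, and there limma without a trend missed changes that had been put into single tiles. Gene-body fits (reads summed over genes with 5 or more tiles) were added after seeing the data. Alternatives were a trend, voom, a replicate block, centring, GC correction, read minimums, other limits of the rule and leaving out each library. Without molecular identifiers, intervals cover counting error alone. Genes with near-identical copies, such as histones and olfactory receptors, lose reads that map to several places, in Input too.

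The members and the gene lists were chosen with earlier results of these data known. Named were, of each list, the 3 starts in the set with the most CpG sites in their tile, of which the text describes a part; per mark and direction the 3 tiles with the largest mean difference at least 2-fold in both replicates, with 5 or more reads in each library of the higher group and at least 10 kb apart; the 3 longest runs; and the 3 tiles on either side of the limit. A promoter and a gene that these rules or the text would have named are not reported here.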

Additional observations from a re-analysis of the deposited data

How the results depend on the processing

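The H3K27me3 difference over the tiles of -0.22 kept its direction under all 9 alternatives. It was -0.38 with a GC correction, -0.34 at a margin of 1.5, -0.33 with centring, -0.32 as a mean of log2 values and -0.27 to -0.17 when 1 replicate was left out. The H3K9me2 difference of 0.36 ranged from -0.04 without replicate 2 to 0.76 without replicate 1, and was 0.54 with a GC correction. The H3K9me3 difference of -0.09 became 0.02 with a GC correction and ranged from -0.19 to 0.02 without 1 replicate. For H3K27me3, limma called 12 tiles with a trend and 22 with voom, and for H3K9me3 1 tile with voom (0.0386% of all tiles passed), in an exon of *Tcof1* with 10 and 3 reads in the controls and 10 and 30 in the cKO. Leaving out 1 library gave 0 to 1997 H3K9me3 tiles, with 583 and 1997 calls without the cKO library of replicate 1 and 2. Where 1 library was left out, the lone library was assumed to vary like the others. Over gene bodies a trend called 1 gene for H3K27me3 and voom 5 for H3K9me3 (*Bud13* higher, *Cirh1a*, *Ddx56*, *Gtf2h3* and *Smarcad1* lower), 0.0819% and 0.41% of the 1221 genes against 0.573% and 12.5% of all. Leaving out 1 library gave 0 to 314 genes for H3K27me3, 0 to 809 for H3K9me2 and 0 to 169 for H3K9me3. The causes were not tested.

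The replicate numbers share only a number, and deviations of libraries with the same number correlated at 0.02, 0.06 and 0.04 over the chosen tiles and at 0.36, 0.27 and 0.13 over gene bodies (H3K27me3, H3K9me2 and H3K9me3). With a replicate block, 362 gene bodies were called for H3K27me3 (2 higher, 360 lower) in place of 0, or 0.164% and 29.5% against 1.9% and 16% of all genes, no gene bodies for the other marks, and no tiles.

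Tiles at least 2-fold higher in both replicates numbered 17 for H3K27me3, 420 for H3K9me2 and 27 for H3K9me3 at 4-fold, and 87, 383 and 33 with at least 10 reads on average, where 9354, 15229 and 4082 tiles remained. The shares at 10 reads were 0.93%, 2.51% and 0.808%, against 0.832%, 0.688% and 0.85% of all such tiles, so the H3K9me3 share, above that of all tiles without the minimum, was below it. At 4-fold they were 0.036%, 0.889% and 0.0571%, against 0.0111%, 0.156% and 0.0139%. In 1 replicate alone they numbered 3423 to 5397, 6937 to 22330 and 5097 to 5956. The share of tiles with a gene start was 3% with Input of at least 0 and 11.2% for the start of any transcript, against 1.17% and 3.31% of all tiles. At a margin of 1.5, the rule was met again at day 8 in the controls by 26.7% of tiles, against 1.68% of all tiles. At the margin of 1 it was met by 57.4% to 57.6% in single replicates, against 4.79% to 4.81%. Single tiles are limited by depth, with a median of 2 to 13 reads per ChIP library.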
